A study of Mus musculus with 8 samples.

Results

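Small nuclear ribonucleoproteins (snRNPs) are the RNA-protein particles from which the spliceosome is built. Snrnp70 and Snrpa encode proteins carried by the U1 particle, which recognizes the 5' splice site, and 8 further genes encode other proteins of U1, of the U2 particle and of the Sm ring. These 10 genes were examined among 24651 genes in testes of 12-day-old mice lacking Morc2b. Snrnp70 and Snrpa were picked because every Morc2b-/- sample lay below every wild type sample, so their difference between genotypes is given as a description, and no test is drawn from it. The other 8 genes, Snrpc, Snrpa1, Snrpb2, Snrpd1, Snrpd2, Snrpd3, Snrpe and Snrpf, were picked by family, and their values had no part in the rule. All 10 were among the 13507 genes with enough counts to be tested.

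The samples were 4 wild type and 4 Morc2b-/- males at postnatal day 12, on a mixed strain background, and each library was made from 1 pair of testes. In the Morc2b-/- males, the exon that holds the whole coding region had been replaced by a selection cassette. The line came from a single targeted clone of V6.5 embryonic stem cells, a hybrid of inbred strains, and its carriers were intercrossed. The sample labels and the study's methods call the controls wild type, whereas the series' design text calls them Morc2b+/-. MORC2B is a germ cell protein of the MORC ATPase family, and the deletion is present in every cell of the animal.

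The U1 particle holds 3 proteins of its own, encoded by Snrnp70, Snrpa and Snrpc. The first of these is the largest, and it and the A protein, the product of Snrpa, each bind a loop of the U1 RNA, while the C protein, the product of Snrpc, helps the particle to hold the 5' splice site. U2, which recognizes the branch point, holds the paired proteins A' and B'', the products of Snrpa1 and Snrpb2. The Sm proteins form a ring around the RNA of U1, U2, U4 and U5, so a gene of the ring serves every one of these particles. Splicing is needed in all cells of the testis, and the germ cells of this organ are known for an unusually rich set of alternative transcripts.

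Each library had between 27144796 and 36941755 counts on listed transcripts (median 31684772), with overlapping ranges in the 2 genotypes. Counts on Morc2b, the targeted gene, were 428, 443, 24 and 1272 in the wild type samples and 10, 10, 115 and 2 in the Morc2b-/- samples. The library labelled wild type replicate 3 was therefore below the library labelled Morc2b-/- replicate 3. Levels are given as CPM, counts scaled to the library size with TMM factors. The sum of 6 epididymal markers, of which Lcn9 was at 0, was 249 CPM for wild type replicate 1 and 13.9 CPM for Morc2b-/- replicate 2, while no other library was above 1.46 CPM. The sum of 6 spermatid markers was 148 CPM for wild type replicate 1 and 302 CPM for Morc2b-/- replicate 3, while no other library was above 32.8 CPM. Markers of leptotene and zygotene spermatocytes, all 8 of them detected, summed to 1476 to 2255 CPM in wild type and 1329 to 2333 CPM in Morc2b-/- samples. For pachytene markers, with 5 of 6 detected, the sums were 21.8 to 291 CPM (median 110 CPM) in wild type and 25.5 to 152 CPM (median 35.1 CPM) in Morc2b-/- samples, the highest of the latter in the replicate with most spermatid RNA. For Sertoli cell markers, with 5 of 6 detected, they were 6277 to 7166 CPM (median 6672 CPM) and 6853 to 7714 CPM (median 7432 CPM). In each of these last lists, 1 of 5 tested markers had an unadjusted p under 0.05 in the edgeR test, beside 1.84% of all tested genes. The sums of the genotypes overlapped, but not each marker in these sums did. Piwil1, a pachytene marker, was at 36.2, 46.3, 16.6 and 133 CPM in wild type samples. In Morc2b-/- samples it was at 15.5, 14.8, 14.7 and 15.8 CPM, without overlap. Values of the other markers are not given here. The part of these sums in the results was not tested. In whole testes, fewer cells of a type and less RNA per cell cannot be told apart.

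The reads were counted per RefSeq transcript, and a read that fitted more than 1 listed transcript was set aside. Across the samples, 26.8% to 28.8% of the uniquely aligned reads were set aside in this way. This bears on what was measured for the pair of chosen genes, though its part in their counts was not tested. Snrnp70 has 3 listed transcripts, 1 coding and 2 non-coding, and its counts came from 1 of the non-coding ones. On that transcript, the wild type samples had 2229, 2022, 1825 and 2092 counts and the Morc2b-/- samples had 1658, 2021, 1713 and 1614. The coding transcript of Snrnp70 and the other non-coding one had 0 counts in all 8 samples. Snrpa has 3 listed transcripts, all coding, and again 1 of them held every count. On it, the wild type samples had 39, 27, 30 and 37 counts and the Morc2b-/- samples had 22, 23, 26 and 15. For both genes the values are thus reads counted on 1 transcript only, not the output of the gene. A 0 for the others is not a measurement of their expression. Each of the other 8 genes has a single listed transcript, with 369 to 5259 counts in a sample. Of the 13507 genes tested, 979 (7.25%) had more than 1 listed transcript and counts on only 1. In 18 of these (1.84%) every Morc2b-/- sample was below every wild type sample, and the same held for 79 of 11207 genes with 1 listed transcript (0.705%). That difference was not tested.

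**Figure D1:**
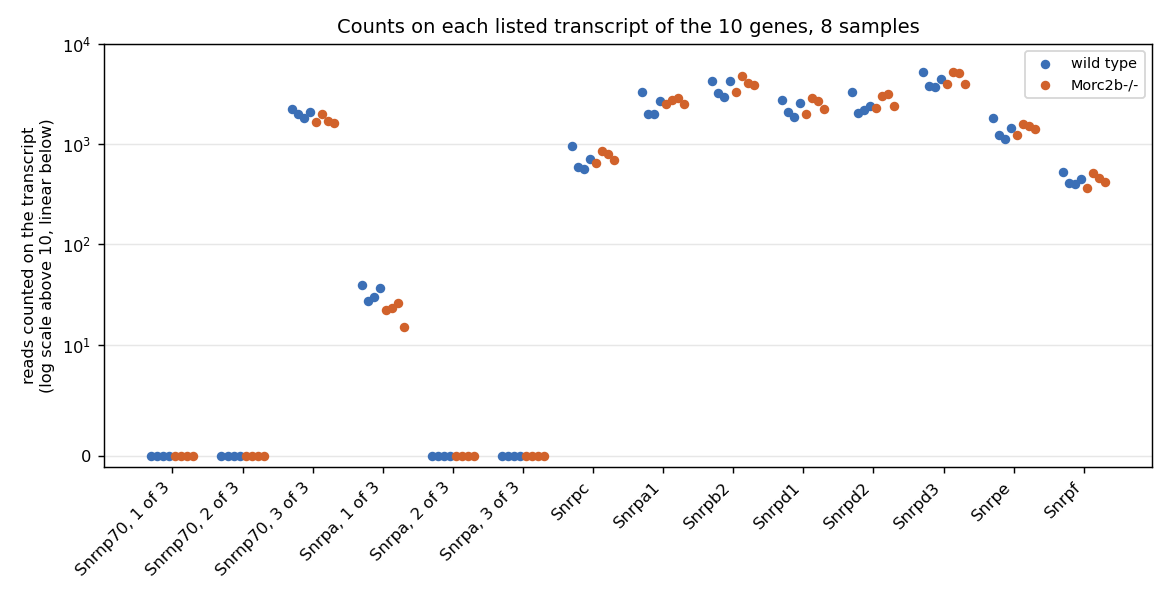
Reads counted on each listed transcript of the 10 genes (y axis, log scale above 10 and linear below), with 1 point per sample, wild type in blue and Morc2b-/- in orange. For Snrnp70 and Snrpa only 1 of 3 listed transcripts held counts, 1614 to 2229 and 15 to 39 per sample.

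The gene models hold stretches that not every transcript of these genes carries. In the annotation of the mouse genome NCBIM37 (mm9), Snrnp70 lies at chr7:52631824-52651062 on the minus strand, and its reference transcript has 10 exons and codes for 448 amino acids. A shorter Snrnp70 transcript of that annotation ends in an exon of 26 bases, at chr7:52638529-52638554, which closes the reading frame after 166 codons. Snrpa lies at chr7:27972024-27981290 on the minus strand, with 7 exons and 287 codons in its reference transcript. A Snrpa transcript is annotated as a target of nonsense-mediated decay, the pathway that removes messages with an early stop codon. It holds an exon of 123 bases at chr7:27979101-27979223, here called the additional exon. The first 44 bases of that exon, at chr7:27979180-27979223, end with the stop. Both stretches are shown, 5' to 3' in the direction of the gene with the stop codon in capitals. In their own transcripts they close the reading frame earlier than in the reference transcript. It was not examined whether the reference transcripts carry any part of these stretches. Whether the counted transcripts contain them is not given in the sources used here. The counted Snrpa transcript is listed as coding, unlike the annotated transcript that holds this additional exon, so its counts are not read as counts of that exon.
Snrnp70, last exon of the short transcript: ccaccacgcagctggcttgcagcTGA
Snrpa, start of the additional exon: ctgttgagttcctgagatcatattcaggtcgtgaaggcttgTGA

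The promoters of the pair were compared as well. The 250 bases before each start that RefSeq lists on GRCm38.p6 are shown, with 1 of the motifs searched in capitals. In Snrnp70 the capitals mark the binding palindrome of NRF1, a transcription factor of genes for basic cell functions, which 0.782% of 32851 promoters held. In Snrpa, which has 2 listed starts 511 bases apart, they mark the E-box CACGTG, which reads the same on both strands and was held by 6.02% of the promoters.
Snrnp70, chr7:45395743-45395992, minus strand: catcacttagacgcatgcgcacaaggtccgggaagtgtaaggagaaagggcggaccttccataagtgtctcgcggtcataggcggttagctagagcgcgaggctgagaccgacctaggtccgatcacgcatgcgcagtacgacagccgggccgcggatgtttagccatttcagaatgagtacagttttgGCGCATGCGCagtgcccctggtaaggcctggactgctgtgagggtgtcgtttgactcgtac
Snrpa, downstream start, chr7:27195761-27196010, minus strand: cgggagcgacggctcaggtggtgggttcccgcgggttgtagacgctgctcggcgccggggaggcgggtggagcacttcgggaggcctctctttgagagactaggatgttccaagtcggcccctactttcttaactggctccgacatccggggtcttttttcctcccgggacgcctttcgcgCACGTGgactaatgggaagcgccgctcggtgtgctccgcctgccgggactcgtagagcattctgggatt
Snrpa, upstream start, chr7:27196272-27196521, minus strand: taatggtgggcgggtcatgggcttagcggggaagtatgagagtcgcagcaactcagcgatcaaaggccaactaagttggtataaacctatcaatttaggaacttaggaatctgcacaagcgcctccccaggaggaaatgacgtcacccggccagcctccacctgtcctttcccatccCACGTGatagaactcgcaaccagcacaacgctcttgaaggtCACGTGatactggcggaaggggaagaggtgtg

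The E-box was absent from the Snrnp70 window and the NRF1 palindrome from both Snrpa windows. No start of Snrpc, Snrpa1, Snrpb2, Snrpd2, Snrpd3, Snrpe or Snrpf held either motif. Also searched on both strands were the GC box GGGCGG, found in 6 of the 9 genes looked at and in 32.7% of all promoters, and the ETS motif CCGGAAG, found in 2 genes (Snrpb2 and Snrpc) and 6.91%. The NF-Y motif CCAAT was found in 2 genes (Snrpd3 and Snrpf) and 33.8% of all promoters, and the TATA motif TATAAA in 1 gene (Snrpa, upstream start) and 12.4%. None of the letters searched for was found in Snrpe. A match of letters is not evidence that a factor binds there, and its absence says only that these letters are not in the window.

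Among the U1 proteins, Snrnp70 was measured at 60.8, 74.2, 65.2 and 65.7 CPM in the wild type samples and at 53.6, 54.7, 49.1 and 55.5 CPM in the Morc2b-/- samples. The means were 66.5 ± 5.6 and 53.2 ± 2.86 CPM (SD, n = 4 each), and the lowest wild type value was 5.26 CPM above the highest Morc2b-/- value. The fitted log2 fold change, Morc2b-/- over wild type, was -0.32, with a standard error of 0.077. Not overlapping in this direction was seen for 0.881% of all tested genes (119 of 13507), and among the 10 genes it was seen for Snrnp70 and Snrpa, the pair chosen for it. The opposite, every Morc2b-/- sample above every wild type sample, was seen for 0 of the 10 genes and 0.407% of all tested genes. The wild type sample with the lowest value was replicate 1, the library with epididymal and spermatid RNA. Without it, and without both Morc2b-/- libraries that stood apart, the log2 fold change was -0.33.

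Snrpa was measured at 1.06, 0.99, 1.07 and 1.16 CPM in wild type and at 0.711, 0.622, 0.745 and 0.516 CPM in Morc2b-/- samples. The means were 1.07 ± 0.0707 and 0.648 ± 0.103 CPM (SD, n = 4 each), a log2 fold change of -0.72 with a standard error of 0.19. These values rest on 133 wild type and 86 Morc2b-/- counts in all. The 27 counts of wild type replicate 2 have an exact 95% Poisson interval of 17.8 to 39.3, and the 26 counts of Morc2b-/- replicate 3 one of 17.0 to 38.1, so the order of the closest samples lies within counting error. Without the 3 libraries that stood apart, the log2 fold change was -0.81. The first exon of Snrpa overlaps 117 bases of BC024978 on the opposite strand, and how the counting treated strand is not given in the sources used here. BC024978 had 206 to 333 counts in wild type and 222 to 318 in Morc2b-/- samples.

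Snrpc, which encodes the C protein of U1, was measured at 26.3, 21.5, 20.3 and 22.3 CPM in wild type and at 21.1, 22.9, 22.7 and 23.9 CPM in Morc2b-/- samples. The ranges overlapped, and all 4 Morc2b-/- samples were above the lowest wild type sample. The log2 fold change was 0.0034 with a 95% interval of -0.22 to 0.22 (edgeR quasi-likelihood test, adjusted p = 0.9998).

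**Figure D2:**
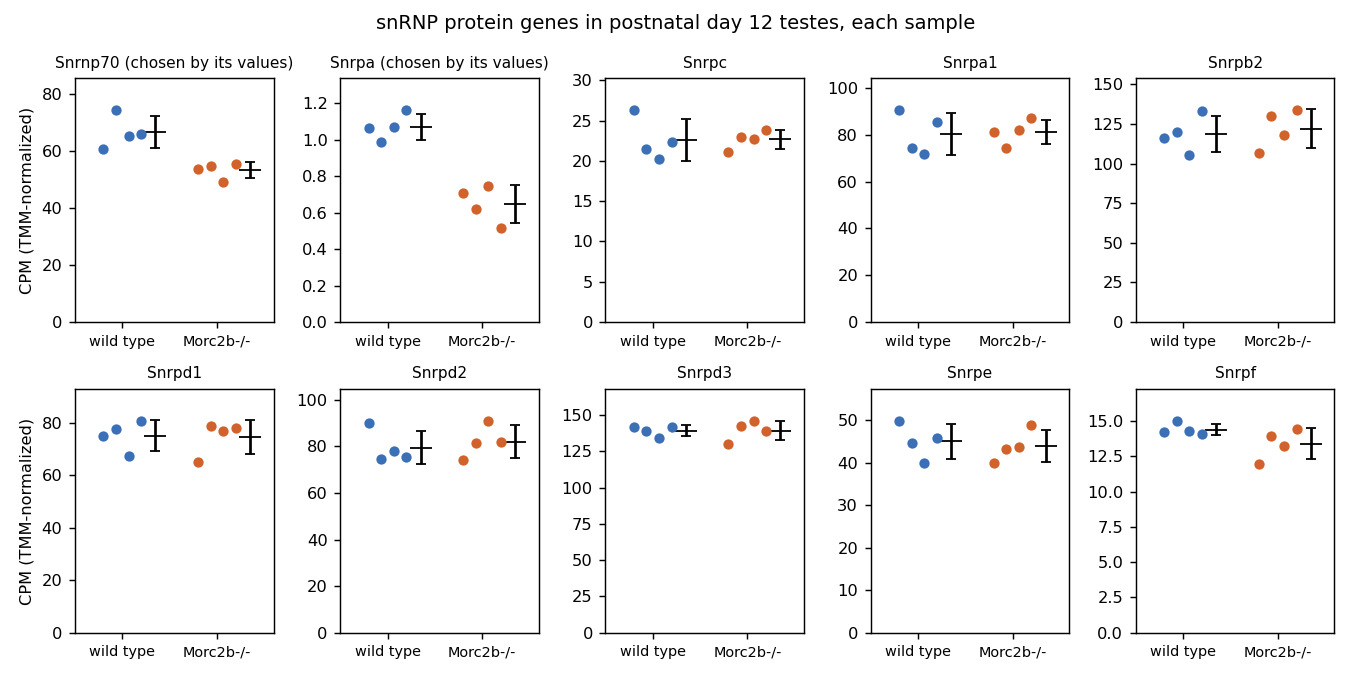
CPM after TMM normalization (y axis, from 0) of the 10 genes in each of the 4 wild type (blue) and 4 Morc2b-/- (orange) samples, with the mean and SD beside the points. Snrnp70 and Snrpa were chosen because their groups do not overlap, and the groups overlap in the other 8 panels.

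The genotypes overlapped for both U2 genes. Snrpa1, which encodes the A' protein, had 90.5, 74.2, 71.7 and 85.4 CPM in wild type and 81.0, 74.4, 82.0 and 87.3 CPM in Morc2b-/- samples. Its log2 fold change was 0.013 (95% interval -0.19 to 0.21). Snrpb2, which encodes the B'' protein, a relative of the A protein of U1, had 116, 120, 106 and 133 CPM in wild type and 106, 130, 118 and 134 CPM in Morc2b-/- samples. Its log2 fold change was 0.041 (95% interval -0.17 to 0.25). For each of the U2 genes, all 4 Morc2b-/- samples were above the lowest wild type sample.

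The Sm ring was covered by 5 genes. Snrpd1, which encodes SmD1, had 74.9, 77.7, 67.4 and 80.8 CPM in wild type and 65.0, 78.7, 76.9 and 77.9 CPM in Morc2b-/- samples. Snrpd2, which encodes SmD2, had 90.0, 74.5, 77.9 and 75.5 CPM in wild type and 74.1, 81.4, 90.9 and 81.9 CPM in Morc2b-/- samples. In each of these genes 1 Morc2b-/- sample, replicate 1, was below all wild type samples and the others lay within or above their range. The log2 fold changes were -0.011 (95% interval -0.20 to 0.18) for Snrpd1 and 0.047 (-0.14 to 0.24) for Snrpd2.

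Snrpd3, which encodes SmD3, had the narrowest interval of the 8 genes chosen by family. It had 142, 139, 134 and 142 CPM in wild type and 130, 142, 146 and 139 CPM in Morc2b-/- samples, a log2 fold change of 0.0018 with a 95% interval of -0.12 to 0.12. Snrpe, which encodes SmE, had 49.9, 44.8, 39.9 and 45.9 CPM in wild type and 40.0, 43.2, 43.8 and 49.0 CPM in Morc2b-/- samples. Its log2 fold change was -0.037 (95% interval -0.24 to 0.17), and no Morc2b-/- sample lay below the lowest wild type sample.

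Snrpf, which encodes SmF, had 14.2, 15.0, 14.3 and 14.0 CPM in wild type and 11.9, 13.9, 13.2 and 14.4 CPM in Morc2b-/- samples. In 3 of 4 Morc2b-/- samples the value was below all wild type samples, but replicate 4 was above 3 of them. The log2 fold change of Snrpf was -0.11 (95% interval -0.31 to 0.099), the lowest of the 8 genes, with an unadjusted p of 0.274 in the edgeR test. On the opposite strand, exons of Ccdc38 cover 567 bases, or 65.9%, of the Snrpf transcript. Ccdc38 had 93, 31, 21 and 101 counts in wild type and 15, 77, 283 and 36 counts in Morc2b-/- samples.

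None of the 8 genes chosen by family passed an adjusted p of 0.05, where 0% of the 13507 tested genes passed, or an unadjusted p of 0.05, which 1.84% of the tested genes passed (249 genes, edgeR). DESeq2 gave 1 gene in all with an adjusted p under 0.05. Morc2b, the targeted gene, did not pass in the edgeR test either (log2 fold change -4.09, adjusted p = 0.9998). Of the 8 log2 fold changes, 3 were below 0 and 5 above, with a median of 0.0026 beside 0.0022 over all tested genes. The 8 values lay between -0.11 and 0.05 and the 95% intervals between -0.31 and 0.25. A p that misses the threshold does not show that the genotypes were alike, and these intervals, written as percent changes, reach from -19.3% for Snrpf to 18.8% for Snrpb2.

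**Figure D3:**
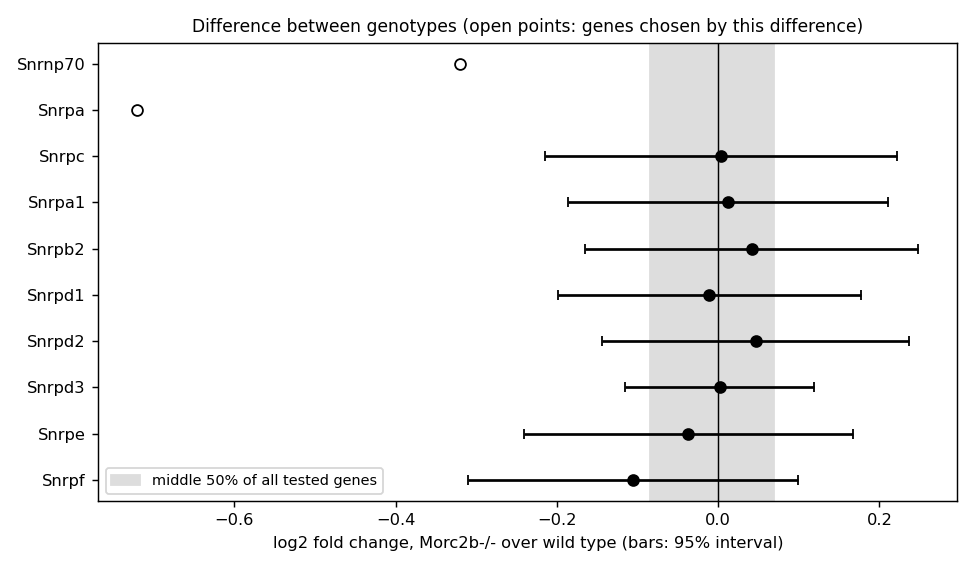
Log2 fold change, Morc2b-/- over wild type (x axis), of the 10 genes, with 95% intervals for the 8 genes chosen by family and open points without interval for Snrnp70 and Snrpa, which were chosen by this difference. The grey band holds the middle 50% of all 13507 tested genes (-0.085 to 0.069), and only Snrnp70, Snrpa and Snrpf have points outside it.

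The chosen pair was also set against the rest of the family within each library, a scale that needs no normalization factor. The summed counts of the 8 other genes came to 531 to 603 CPM in wild type and 530 to 607 CPM in Morc2b-/- samples. Snrnp70 counts were 10.07%, 13.1%, 12.3% and 11.0% of that sum in wild type and 10.12%, 9.32%, 8.27% and 9.15% in Morc2b-/- samples. On this scale the genotypes overlapped, since wild type replicate 1 lay below Morc2b-/- replicate 1. Snrpa counts were 0.176%, 0.175%, 0.202% and 0.194% of the sum in wild type and 0.134%, 0.106%, 0.126% and 0.085% in Morc2b-/- samples, which did not overlap. The scale was added after the values were seen.

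**Figure D4:**
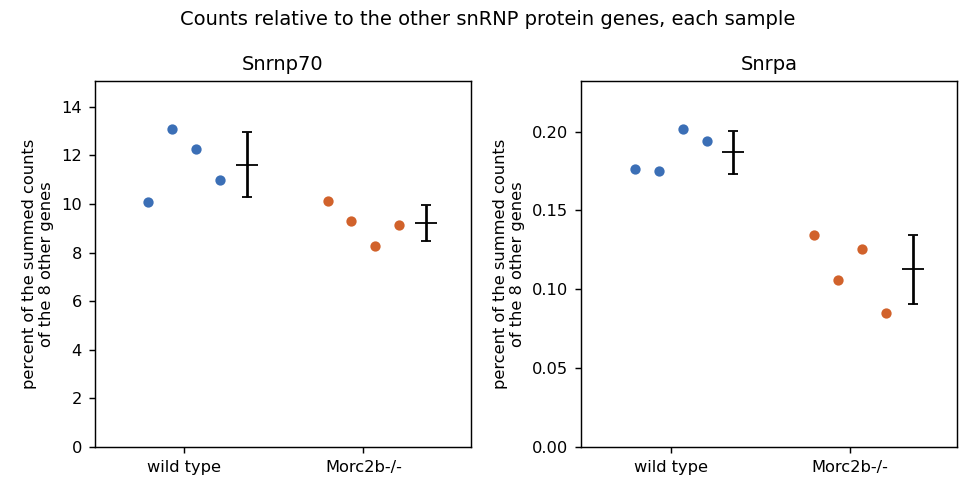
Counts of Snrnp70 (left) and Snrpa (right) as a percent of the summed counts of the 8 other genes in the same library (y axes, from 0), with 1 point per sample and the mean and SD beside them. For Snrnp70, wild type replicate 1 (10.07%) is just below the highest Morc2b-/- sample (10.12%). The counts of Snrnp70 and Snrpa lie on 1 of 3 listed transcripts and are not the output of the gene.

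The pattern of the members over the samples was compared as well. Likeness was taken as the mean absolute difference over the 8 samples between log2 CPM values, each centred on its gene's mean. The closest members were Snrpb2 and Snrpd1, which differed by 0.051, and Snrpc and Snrpe, which differed by 0.052. Between any pair of the 8 genes chosen by family the difference was at most 0.15, for Snrpb2 and Snrpd2. Snrnp70 differed from the 8 by 0.12 (Snrpf) to 0.21 (Snrpd2) and from Snrpa by 0.24. Snrpa differed from the 8 by 0.29 (Snrpf) to 0.37 (Snrpd2). The contrast by which Snrnp70 and Snrpa were chosen is part of these differences. Morc2b-/- replicate 1 was the lowest of all 8 samples for 4 of the 8 genes, and 4 of the 8 had their lowest value in a wild type sample.

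Of the genes with a mean of at least 10 CPM, the 5 with the pattern most like Snrnp70 were Slc9a5, Phf24, Tmem265, Apbb3 and Snx32, at differences of 0.067 to 0.083 over 8 samples. The 5 most like Snrpa were Pkmyt1, Adad2, Khdrbs3, Cchcr1 and Frmd7, at 0.13 to 0.21. No member of the snRNP family was in either group of 5. The contrast that chose Snrnp70 and Snrpa is part of this measure, which favours genes that share it. Snrpa was below 10 CPM and could not enter the group of Snrnp70. The absence of the family is therefore a description only. Within a genotype, the coefficient of variation of the 8 genes chosen by family ran from 2.64% to 11.5%. It was 8.43% in wild type and 5.38% in Morc2b-/- samples for Snrnp70, and 6.6% and 15.8% for Snrpa, the gene with the fewest counts.

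Levels were compared between genes only per length, for the 8 genes with 1 listed transcript, using the length of the NCBIM37 reference transcript. Over the 8 samples, the level in CPM per kb was 230 ± 8.29 for Snrpd3, 132 ± 10.9 for Snrpd2, 89.5 ± 6.77 for Snrpd1 and 88.6 ± 7.34 for Snrpe (SD, n = 8). The U2 genes followed with 65.0 ± 5.48 for Snrpa1 and 58.3 ± 5.38 for Snrpb2, and Snrpc and Snrpf were lowest at 26.0 ± 2.13 and 16.1 ± 1.09. The samples of Snrpd1 overlapped those of Snrpe, and the samples of Snrpa1 overlapped those of Snrpb2. All genes were measured in the same libraries, and differences between neighbours within a library were not tested. The other neighbours in the order did not overlap.

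This order depends on how much of each transcript can be aligned uniquely, because snRNP protein genes have processed copies elsewhere in the genome and reads without a unique place were set aside. Of the windows of 75 bases along the reference transcript, 83.2% of those of Snrpc matched another place with at most 2 mismatches. The share was 72.7% for Snrpd2, 63.6% for Snrpe, 55.4% for Snrpd1, 47.8% for Snrpa, 29.0% for Snrpf and 10.5% for Snrpb2, and it was 0% for Snrnp70, Snrpa1 and Snrpd3. Per kb of windows without such a match, Snrpd2 was highest at 549 ± 45.4 CPM, followed by Snrpe at 286 ± 23.7, Snrpd3 at 262 ± 9.45, Snrpd1 at 220 ± 16.7 and Snrpc at 169 ± 13.9. On this scale the samples of Snrpe overlapped those of Snrpd3, and the samples of Snrpd1 overlapped those of Snrpc. Whether a read that matched its own gene better than a copy was set aside was not examined. If such reads were counted, this scale is too high for genes with many windows that match a copy. Snrpa1 (69.1 ± 5.83), Snrpb2 (67.6 ± 6.24) and Snrpf (24.8 ± 1.68) were lowest, with overlap between the samples of the U2 genes. Neither scale allows for genes on the opposite strand. Exons of Ccdc38 cover 65.9% of the Snrpf transcript and those of 4933408J17Rik 19.5%. Reads there may have been set aside, since the strand setting is not given, so the low place of Snrpf may not be its level.

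The other spliceosome genes were grouped in 9 lists of 104 genes, of which 83 were tested. All 62 genes with a single listed transcript passed the filter on low counts, but 21 of the 42 with more than 1 did not. Among those 21 were genes that every cell uses, such as Eftud2, Srsf10, Clk2, Ppp1r8 and Rnpc3, which are listed at 0 in all samples. Of the 83 tested genes, 51 had a log2 fold change below 0 and 32 above, with a median of -0.025 beside 0.0022 over all tested genes. Of all tested genes, 49.2% were below 0. None passed an adjusted p of 0.05 in the edgeR test. At an unadjusted p under 0.05 there were 2 (2.41%), close to the 1.84% of all tested genes. Every Morc2b-/- sample was below every wild type sample for 2 of the 83 (2.41%) and above for 1. Over all tested genes these shares were 0.881% and 0.407%, and the difference was not tested. The 83 log2 fold changes ran from -0.60 (Cd2bp2) to 0.73 (Phax).

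Snrpb and Snrpg, which encode the remaining Sm ring proteins SmB and SmG, had log2 fold changes of -0.04 (95% interval -0.21 to 0.13) and 0.02 (-0.15 to 0.19). Snrpb had 386, 322, 324 and 306 CPM in wild type and 309, 323, 348 and 323 CPM in Morc2b-/- samples. Of 6 tested factors that associate with U1, 4 were lower and 2 higher, led by Luc7l2, a U1 partner in 5' splice site choice, with a log2 fold change of -0.23 (95% interval -0.61 to 0.16). Luc7l2 has 7 listed transcripts with counts on 1. Of 13 tested U2 factors, 8 were lower and 5 higher, and Sf3b6, a subunit of SF3b at the branch point, had the lowest p of the list with a log2 fold change of 0.08 (95% interval -0.04 to 0.21).

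Cd2bp2, which encodes a protein of the U5 particle, was the only gene of the 16 tested tri-snRNP genes with an unadjusted p under 0.05 (0.0144, edgeR, adjusted p = 0.9998). It had 33, 24, 21 and 24 counts in wild type and 17, 19, 16 and 19 in Morc2b-/- samples, with no overlap in CPM and a log2 fold change of -0.60. Like Snrnp70 and Snrpa, Cd2bp2 had counts on 1 of several listed transcripts, here 4. In this tri-snRNP list, 11 genes were lower and 5 higher.

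Phax, the adaptor that exports newly made snRNA from the nucleus, was the only one of 14 tested genes of snRNP assembly and import with an unadjusted p under 0.05 (0.0388, edgeR, adjusted p = 0.9998). It had 12, 5, 5 and 10 counts in wild type and 14, 13, 19 and 10 in Morc2b-/- samples, with no overlap in CPM and a log2 fold change of 0.73. In that list, 5 genes were lower and 9 higher. SR proteins, which help to recruit U1 to exons, were lower for 8 and higher for 2 of 10 tested genes, with a median of -0.09. Among them Tra2b had no overlap between genotypes, with 8.97 ± 0.295 CPM in wild type and 8.34 ± 0.391 CPM in Morc2b-/- samples (SD, n = 4 each), and its unadjusted p in the edgeR test was 0.278.

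In the remaining lists no gene had an unadjusted p under 0.05 or genotypes without overlap. Lsm7, of the Sm-like ring of U6, had the lowest p among 8 LSm genes with a log2 fold change of -0.30 (95% interval -0.66 to 0.07), and the list was evenly divided between 4 lower and 4 higher genes. Snrnp48, a protein of the minor spliceosome, had a log2 fold change of -0.07 (95% interval -0.30 to 0.15), in a list with 5 lower and 2 higher genes. Srpk1, a kinase of SR proteins, had a log2 fold change of -0.09 (95% interval -0.30 to 0.11), in a list with 5 lower and 2 higher genes. Over the 9 lists, medians ran from -0.09 for the SR proteins to 0.02 for snRNP assembly and import.

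**Figure D5:**
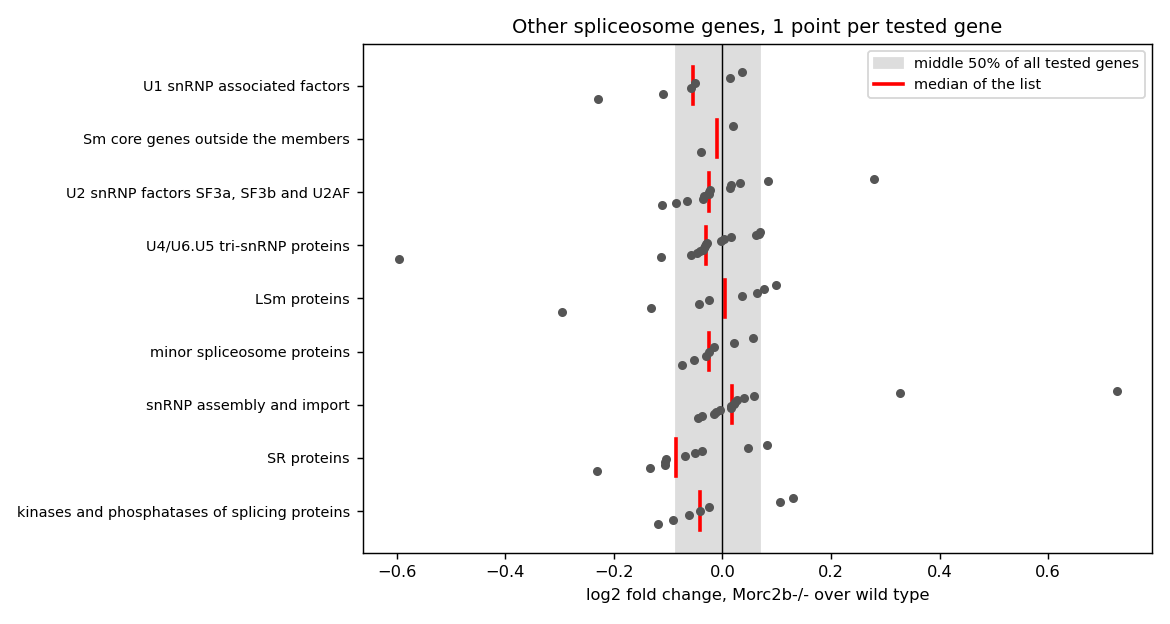
Log2 fold change, Morc2b-/- over wild type (x axis), of the 83 tested genes of 9 other spliceosome lists, with 1 point per gene, the list's median as a red line and the middle 50% of all tested genes in grey. The medians lie between -0.09 and 0.02, and the points farthest out are Cd2bp2 (-0.60) and Phax (0.73), both with few counts.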

How the data were processed

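Libraries were made from total RNA of testes with a stranded mRNA kit and sequenced with 75 cycles. TopHat was used by the authors for alignment to mm9 (NCBI37), and the values they deposited are raw read counts for each RefSeq transcript. The counting program, its strand setting and its annotation release are not given in the sources used here. Tally lines in the deposited files hold reads without a feature (20.7% to 26.5% of uniquely aligned reads), reads that touched several transcripts, and reads aligned to several places (32.2% to 33.8% of all aligned reads), none of which enter a count or a library size.

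Of 35819 transcripts, 35522 were matched to a symbol through RefSeq tables on GRCm38.p6, and counts were summed per symbol. The 297 unmatched transcripts held 0.484% of counts. Genotypes were compared with edgeR 4.0.16 (TMM, filterByExpr, glmQLFit and glmQLFTest, genotype only) in R 4.3.3, with Benjamini-Hochberg adjustment over all tested genes. This stands in for the FPKM comparison by Cuffdiff, which needs alignments. With Cuffdiff, the study reported genes that differed between these genotypes at a false discovery rate under 0.05. Its real-time PCR of selected genes in other testes gave differences as well. The counts tested here with edgeR gave 0 genes at that threshold, and the cause of this unlike outcome was not tested. Log2 CPM values used a prior count of 2. Alternatives were RLE and upper-quartile scaling, DESeq2 1.42.0, limma-voom (limma 3.58.1), other filters on low counts, transcripts as units, the replicate number as a block, and leaving out each sample. Leaving out 3 libraries with epididymal or spermatid RNA, and the scale relative to the family, were added after seeing the data. The test was run on simulated counts with known changes, all larger than those of the snRNP members, so that check does not cover changes of their size. Figures were drawn with matplotlib 3.10.9.

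The members, lists and alternatives were chosen with earlier results of these data known. Besides the members and Morc2b, genes were named from each list at an adjusted p, then an unadjusted p, under 0.05 or without overlap between genotypes, and otherwise by the smallest p. Snrpg is named as well because it completes the Sm ring, and overlapping and untested genes are named as limits. No gene set test was run. The labels do not say whether samples of 1 genotype share litters, so p-values measure the spread between these samples. Intervals of counts cover counting error only.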

Additional observations from a re-analysis of the deposited data

Results flagged for a closer look

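In each genotype, the highest and the lowest of the 4 values were compared with the nearest other value for 19 genes, the 10 snRNP members and the 9 genes named from the lists, which gave 38 groups of 4. A gap above Dixon's 95% critical value was found in 2 groups, and chance gives it in about 1 of 20. Snrpd1 in Morc2b-/- replicate 1 was at 65.0 CPM, against 76.9 to 78.7 CPM in the other 3 Morc2b-/- samples, a gap of 0.863 of the range. Tra2b in the same library was at 7.76 CPM, against 8.46 to 8.57 CPM in the other 3, a gap of 0.86 of the range. Without this library, the log2 fold change of Snrpd1 was 0.048 in place of -0.011.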

How the results depend on the processing

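The log2 fold change of Snrnp70 was -0.33 to -0.32 and that of Snrpa -0.81 to -0.72 under 9 other settings. When each sample was left out in turn, they were -0.36 to -0.26 and -0.79 to -0.63. Both genes were chosen by this difference in the same counts, so the ranges describe it and are no support for it. None of the 8 genes chosen by family had an adjusted p under 0.05 under any of these settings. The median of the 8 other snRNP genes ran from -0.0083 to 0.014 over 9 settings and from -0.042 to 0.032 when samples were left out. The genotypes did not overlap for 2 members with RLE, upper-quartile or no scaling. They did not overlap for 1, Snrpa, on the scale relative to the family, which was added after seeing the data. Not overlapping is the rule that chose Snrnp70 and Snrpa, so these counts are a description only. Log2 fold changes near 0 changed sign. Snrpc was at -0.0073 with upper-quartile scaling, -0.0014 with DESeq2 and -0.0037 with at least 10 counts in every sample. Snrpd3 was at -0.0017 with RLE scaling, -0.0093 with upper-quartile scaling, -0.0017 with DESeq2, -0.0047 with at least 10 counts in every sample, -0.00091 with transcripts as units, and -0.045 without the 3 libraries with epididymal or spermatid RNA, where Snrpe was at 0.025. With samples left out in turn, the ranges were -0.045 to 0.085 for Snrpc, -0.039 to 0.074 for Snrpa1, -0.011 to 0.10 for Snrpb2, -0.061 to 0.048 for Snrpd1, -0.0060 to 0.11 for Snrpd2, -0.021 to 0.031 for Snrpd3 and -0.094 to 0.015 for Snrpe.

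Over all genes, the count with an adjusted p under 0.05 was 0 and rose to 1 with DESeq2, and the count with an unadjusted p under 0.05 was 249, against 422 with no low-count filter, which tests more genes, and 204 to 504 with samples left out in turn (504 without wild type replicate 3, 466 without wild type replicate 4 and 385 without Morc2b-/- replicate 1). In the splicing lists the unadjusted count was 2, against 0 with DESeq2 and without the 3 libraries, 1 with no low-count filter, with at least 10 counts in every sample and with transcripts as units, and 1 to 3 with samples left out in turn (1 without wild type replicate 2 or 3 or Morc2b-/- replicate 1 or 3). The deviations of same-numbered samples from their group means correlated at 0.055 on average over 4 pairs, from -0.32 to 0.45, and the labels do not say what the numbers mark. The samples were therefore treated as unpaired, and a shared day or batch was not tested. In a fit with a replicate block, the unadjusted counts were 572 over all genes and 1 in the lists. The cause of these changes was not tested. Depth limits Snrpa, Cd2bp2 and Phax, with at most 39 counts in a sample.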
